A study of Mus musculus with 15 samples.

Results

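The genes described here are the nuclear-encoded subunits of the mitochondrial respiratory chain. They were picked by symbol alone, as every Nduf subunit gene with a letter and a number, Sdha to Sdhd, every Uqcr gene, Cyc1, every gene starting with Cox4 to Cox8, and every gene starting with Atp5. The rule took 84 of the 24421 gene symbols counted, of which 35 belong to complex I, 4 to complex II, 9 to complex III, 19 to complex IV and 15 to complex V (the ATP synthase). Ndufa4 was placed with complex IV, where its protein was later found, and Atp5s and Atp5sl matched by symbol without being structural subunits. RNA was sequenced from kidney cells of C57BL/6 mice, cultured as primary proximal tubule cells and passaged a single time, in 4 groups, which were male Diet1 KO (Diet1-/-, 3 libraries), male WT (4 libraries), female Diet1 KO (4 libraries) and female WT (4 libraries). All groups share the strain, the tissue and the culture, and the ages of the mice are not given in the sources used here. Cells of 3 to 4 mice went into each preparation, which was then divided into 4 technical replicates according to the labels, so every p-value below measures only the spread between aliquots of a pool and not the spread between mice. The questions addressed are how strongly each complex is expressed in these cells, and which of its genes differ between KO and WT cells within each sex.

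The respiratory chain sits in the inner mitochondrial membrane. Complex I takes electrons from NADH and complex II takes them from succinate, both pass them to coenzyme Q, complex III hands them to cytochrome c, and complex IV gives them to oxygen, while complexes I, III and IV pump protons that drive ATP synthesis by complex V. In the kidney, proximal tubule cells are known for their many mitochondria and their reliance on oxidative phosphorylation for sodium-driven reabsorption. Several subunits of complex IV exist in tissue-specific forms encoded by separate genes, with forms typical of most tissues, of heart and skeletal muscle, of lung or of testis.

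Library totals lay between 17648416 and 30896637 counts, and 13912 genes had enough counts to be tested. The Pearson correlation of log expression was at least 0.994 within a group and at most 0.9926 between groups. The label of the cells was only partly borne out by marker genes. Among 10 proximal tubule markers, the endocytic receptor gene Lrp2 lay between 11 and 22.3 CPM (counts per 1e+06 of the library size after TMM scaling, which adjusts each total for RNA composition) and Ggt1 between 34.5 and 76.7 CPM, but the phosphate transporter gene Slc34a1 did not exceed 0.152 CPM and the organic anion transporter gene Slc22a6 did not exceed 0.0499 CPM in any library. The 6 fibroblast markers were uneven, with Col1a1 between 897 and 2070 CPM but Pdgfra between 2.98 and 9.33 CPM and Dcn between 0.185 and 0.722 CPM. The 6 smooth muscle and pericyte markers summed to 1520 to 2360 CPM per library, with Acta2 between 1260 and 1930 CPM but Rgs5 between 0.785 and 4 CPM. The 5 podocyte markers summed to 289 to 456 CPM per library, of which Nphs1 had 1.77 to 7.11 CPM. In such bulk samples, fewer cells of a type and less RNA per cell cannot be told apart. The deleted gene itself is not analysed here.

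Of the 84 members, 78 passed the filter on low counts and 6 did not. Cox8b (the heart and muscle form of subunit 8), Cox8c (a testis form) and Cox7b2 (a testis-type paralog) had no count in any library. Cox4i2, the oxygen-regulated lung form of subunit 4, had 0 to 7 counts per library, and so did Cox6a2, the heart and muscle form of subunit 6a. Ndufs5, an accessory subunit of complex I, was listed at 0 in every library except male KO 1, with 1 count, and male KO 2, with 3 counts. Of the 50-base stretches of Ndufs5 transcripts, 21.7% also occurred in BC002163, which had 25 to 69 counts per library. Whether the counting assigned Ndufs5 reads elsewhere was not tested.

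Together the members took 0.71 ± 0.0097% of all counts in male KO libraries (SD, n = 3), 0.681 ± 0.027% in male WT (n = 4), 0.687 ± 0.022% in female KO (n = 4) and 0.693 ± 0.011% in female WT libraries (n = 4). Complex V held the largest share of counts, at 0.284 ± 0.0030% in male KO, 0.270 ± 0.0095% in male WT, 0.273 ± 0.0076% in female KO and 0.266 ± 0.0028% in female WT. For complex I the shares were 0.168 ± 0.0032% in male KO and 0.163 ± 0.0082% in male WT, and 0.166 ± 0.0058% in female KO and 0.173 ± 0.0046% in female WT. For every complex, the library ranges of KO and WT overlapped in both sexes.

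**Figure D1:**
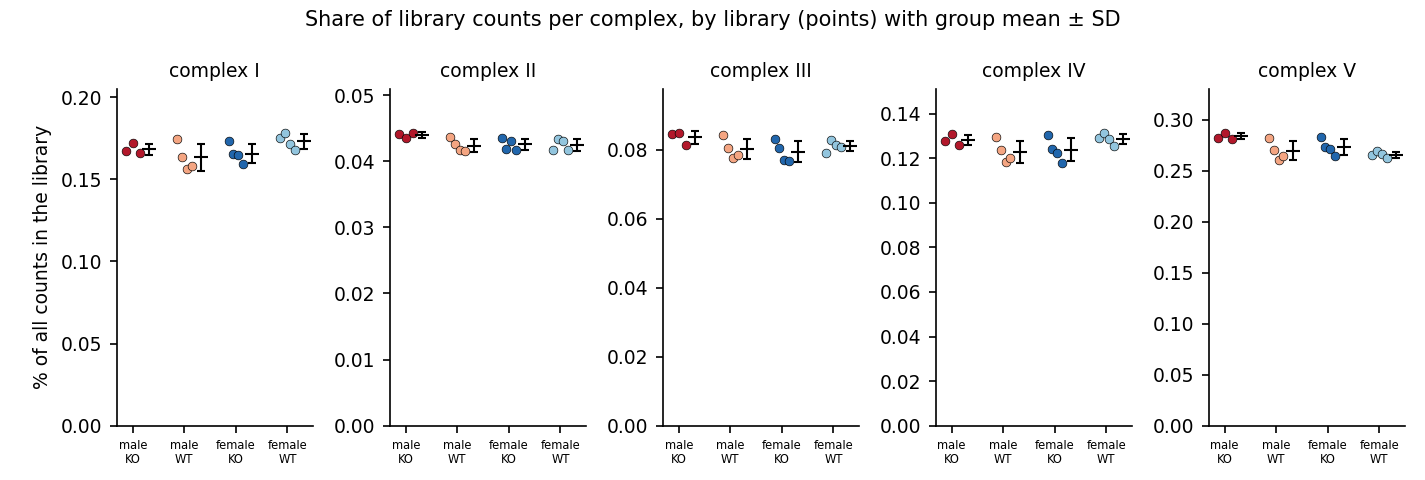
Share of all counts in a library (%, linear axis from 0) held by the genes of complexes I to V, with points for libraries and bars for the group mean ± SD, in male KO (n = 3), male WT, female KO and female WT (n = 4 each). KO and WT points overlap in every panel, for example 0.166 to 0.172% in male KO and 0.156 to 0.175% in male WT for complex I.

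On a scale that allows genes to be compared (CPM per kilobase of exon, with exons from GENCODE M21), the members covered a wide range of levels. Atp5b, the beta subunit that holds the catalytic sites of the ATP synthase, was the highest of all, at 570 ± 2.3 CPM per kilobase in male KO, 541 ± 18 in male WT, 553 ± 11 in female KO and 507 ± 6.3 in female WT (SD). Within complex IV, Cox4i1, the general form of subunit 4, ranked first with 315 ± 9.1 CPM per kilobase in male KO, 295 ± 9.0 in male WT, 313 ± 10 in female KO and 297 ± 5.3 in female WT. Uqcrh, a small accessory subunit also called the hinge protein, led complex III, and its mean over all 15 libraries was 162 CPM per kilobase. Sdha, the flavoprotein that oxidises succinate, was the highest of the 4 complex II genes with a mean over all libraries of 67.3 CPM per kilobase, and the quinone-binding membrane anchor Sdhc was the lowest with 29.7. Among the 34 tested complex I genes the accessory subunit gene Ndufa7 was the highest, with a mean of 120 (119.7) CPM per kilobase, and the accessory subunit genes Ndufb4 and Ndufb2 were the lowest, with 4.61 and 4.57. The place of Ndufb2 rests on its annotated exon length of 4375 bases, since without length scaling it had 20 CPM, against 4.48 CPM for Ndufb4. Of the 50-base stretches of Ndufb4, 37% also occur in other annotated transcripts, and whether its reads were assigned elsewhere was not tested.

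**Figure D2:**
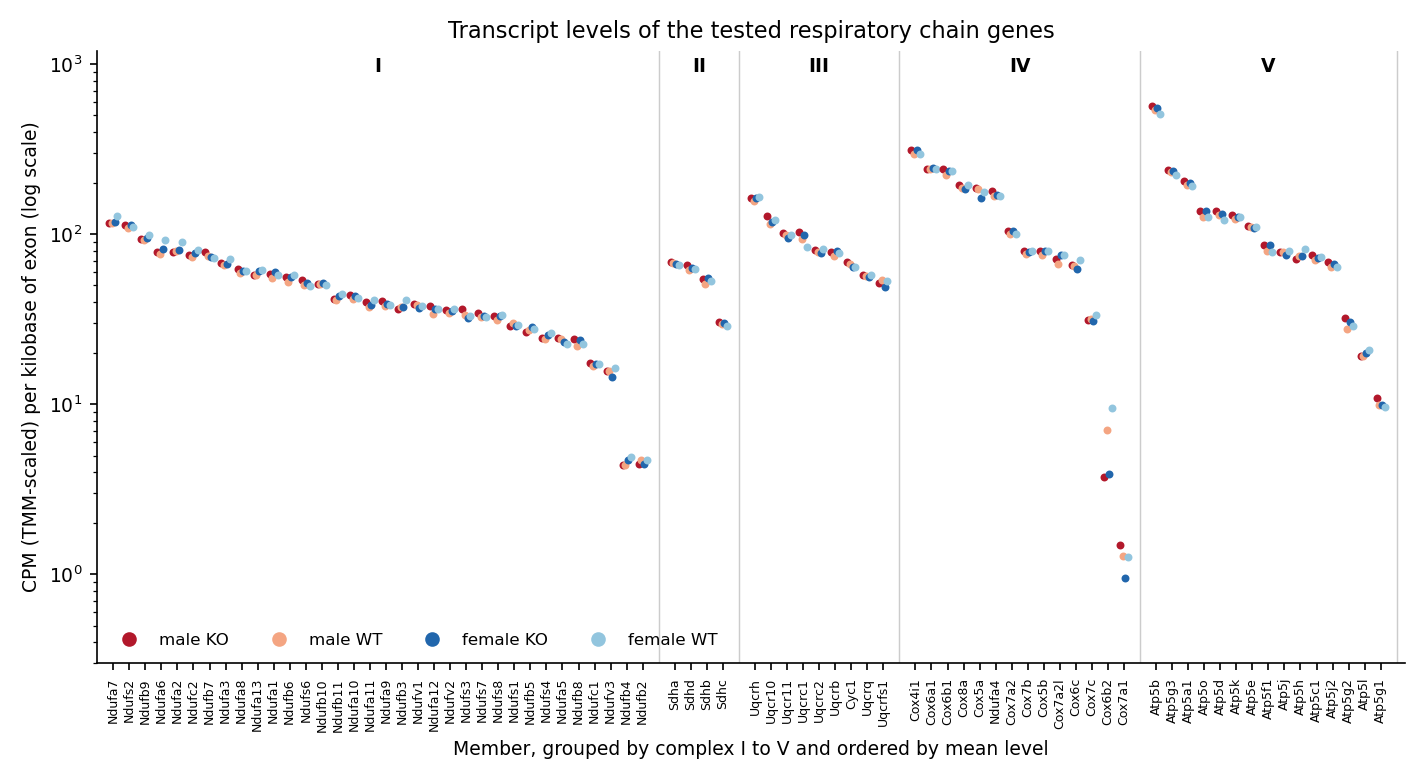
Group mean level (CPM per kilobase of exon, log axis) of each tested subunit gene, grouped by complex I to V and ordered by level, with points in the order male KO, male WT, female KO and female WT. The 4 points of most genes lie close together, the highest gene is Atp5b, and Cox6b2 shows both KO points, at 3.74 and 3.89, under the WT points, at 7.10 and 9.46.

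The lowest tested members of the other complexes were Uqcrfs1, the Rieske iron-sulfur protein of complex III, Cox7a1, the heart and muscle form of subunit 7a in complex IV, and Atp5g1, a gene for subunit c in the rotor ring of complex V. Their means over all libraries were 52.1, 1.23 and 10.1 (10.05) CPM per kilobase. The rank of Atp5g1 rests on its annotated exon length of 4912 bases. With that length it made up 3.86 ± 0.13% of the transcripts of the 3 subunit c genes in male KO, 3.67 ± 0.12% in male WT, 3.60 ± 0.054% in female KO and 3.68 ± 0.18% in female WT. Without length scaling the same shares were 21.3%, 20.5%, 20.2% and 20.6% of the counts. Atp5g3, which encodes the same mature subunit c, dominated with 84.7 ± 0.21% in male KO, 86.0 ± 0.43% in male WT, 85.4 ± 0.45% in female KO and 85.3 ± 0.30% in female WT.

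The forms of complex IV subunits known from most tissues prevailed in all 4 groups. Cox4i2 accounted for 0.0266 ± 0.031% of the subunit 4 transcripts in male KO and 0.0924 ± 0.036% in male WT, and for 0.0698 ± 0.025% in female KO and 0.0314 ± 0.014% in female WT. The muscle form Cox7a1 made up 1.4 ± 0.35% of Cox7a1 plus Cox7a2 per kilobase in male KO, 1.27 ± 0.15% in male WT, 0.894 ± 0.30% in female KO and 1.24 ± 0.48% in female WT. Cox7a1 had 6 to 22 counts per library, its KO and WT libraries overlapped in both sexes, and its log2 difference was 0.23 ± 0.31 in males (SE, adjusted p = 0.678) and -0.42 ± 0.32 in females (adjusted p = 0.32). The muscle genes Ckm, Myh1, Myh2, Myh4, Myh6 and Myh7 were at or under 0.167 CPM in every library, while the muscle troponin gene Tnnt2 lay between 7.55 and 20.2 CPM. Cox6a1, Cox7a2, Cox7b and Cox8a, the general or liver-type forms of their subunits, passed the test in neither sex, with log2 differences between -0.08 and 0.06.

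The largest difference of any member was in Cox6b2, the testis form of subunit 6b, which faces the intermembrane space. Cox6b2 had 2.52, 2.6 and 3.19 CPM in male KO libraries, against 5.54, 5.11, 4.16 and 6.25 CPM in male WT libraries. In female KO libraries it had 2.97, 2.95, 3.00 and 2.61 CPM, against 7.30, 6.70, 7.18 and 6.86 CPM in female WT libraries. Every KO library lay below every WT library of the same sex, and the KO levels of both sexes lay close together. These values rest on 50 to 69 counts per library in male KO and 92 to 171 in male WT, and on 52 to 65 in female KO and 126 to 173 in female WT. Cox6b2 fell by 0.91 on the log2 scale in male KO cells (SE 0.14, a 1.88-fold lower level, edgeR quasi-likelihood test, adjusted p = 6.98e-06). In female KO cells it fell by 1.28 (SE 0.12, 2.43-fold lower, adjusted p = 1.98e-10). The female and male effects differed by -0.37 ± 0.19 on the log2 scale, which did not pass the test (adjusted p = 0.213).

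Cox6b1, the somatic form of the same subunit, did not fall with it. Cox6b1 had 149.9, 148.4 and 148.9 CPM in male KO libraries, against 147, 133.7, 133 and 135.8 CPM in male WT libraries, and it rose in male KO cells by 0.12 ± 0.035 on the log2 scale (adjusted p = 0.0165). In female KO libraries it had 152.9, 144.4, 142.6 and 141.3 CPM, against 147.8, 142.1, 146.9 and 141.7 CPM in female WT libraries, with a log2 difference of 0.01 ± 0.033 (adjusted p = 0.901). Per kilobase, Cox6b2 therefore made up 1.53 ± 0.20% of Cox6b1 plus Cox6b2 in male KO and 3.09 ± 0.47% in male WT, and 1.63 ± 0.092% in female KO and 3.89 ± 0.073% in female WT. The male call of Cox6b1 was lost without male WT 3 or without male KO 3 (adjusted p up to 0.0574).

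**Figure D3:**
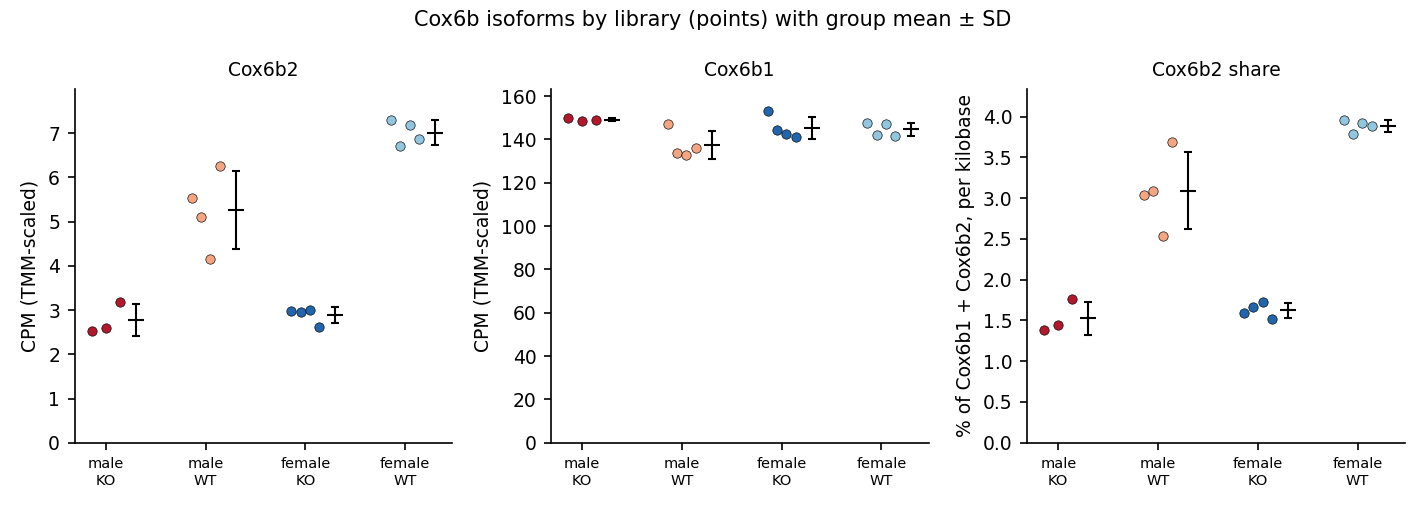
Cox6b2 (left, CPM), Cox6b1 (middle, CPM) and the share of Cox6b2 in the sum of both per kilobase (right, %), with points for libraries and bars for the group mean ± SD in male KO (n = 3), male WT, female KO and female WT (n = 4 each). Cox6b2 lies between 2.52 and 3.19 CPM in KO libraries and between 4.16 and 7.30 CPM in WT libraries, while Cox6b1 lies between 133 and 152.9 CPM in all.

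Cox6b2 lies on the minus strand of chromosome 7 at chr7:4751792-4753094 (GRCm38, GENCODE M21), and none of its 50-base stretches occurred in another annotated transcript. Fam71e2, 132 bases away on the same strand, had 0 to 3 counts per library. The nearest gene on the other side, Suv420h2 (Kmt5c in GENCODE), a histone methyltransferase gene 4278 bases away, fell by 0.21 ± 0.059 on the log2 scale in male KO cells (adjusted p = 0.00817) and differed by -0.10 ± 0.054 in female KO cells (adjusted p = 0.131). The summed levels of several marker lists were also lower in KO libraries of both sexes. The 10 proximal tubule markers summed to 61.0 to 62.1 CPM in male KO and 76.6 to 79.8 in male WT libraries, and to 55.5 to 57.9 in female KO and 88.9 to 103 in female WT libraries, with 2 of the 5 tested markers lower and 0 higher in each sex, where 10.1% of all tested genes were lower in male KO and 18.6% in female KO cells. The 5 thick ascending limb and distal tubule markers summed to 2.08 to 2.87 CPM in male KO and 4.69 to 6.44 in male WT, and to 1.85 to 3.77 in female KO and 10.2 to 10.4 in female WT, with 1 of 4 tested markers lower in males, 2 lower in females and Pvalb at 0 throughout. The 6 fibroblast markers summed to 1780 to 1970 CPM in male KO and 3420 to 3660 in male WT, and to 2540 to 2770 in female KO and 3560 to 3840 in female WT, with 5 of 6 lower in males and 4 lower and 1 higher in females. Most of each fibroblast sum came from Col1a1 and Col1a2. Some other lists did not go this way in both sexes. The 6 endothelium markers summed to 27.5 to 31.0 CPM in male KO and 66.6 to 71.4 in male WT. In females these sums were 28.3 to 38.1 in KO and 24.6 to 30.8 in WT. The 6 smooth muscle and pericyte markers summed to 1520 to 1600 CPM in male KO and 1830 to 2000 in male WT. Their female sums were 2050 to 2360 in KO and 2010 to 2050 in WT. The leukocyte sum, given below, was higher in KO of both sexes. The part of these marker lists in the Cox6b2 result was not tested.

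The promoter windows of the 2 subunit 6b genes are shown because the genes encode forms of the same protein and yet differed in opposite ways in male KO cells. Both windows run from 250 bases before to 50 bases after the start annotated in RefSeq on GRCm38.p6, at chr7:4753045-4753344 for Cox6b2 and chr7:30626065-30626364 for Cox6b1, each read on the minus strand. Capitals mark matches, on either strand, to the CCAAT box (CCAAT), the GC box of SP1 (GGGCGG) and the ETS motif of GABP (CCGGAAG).
Cox6b2: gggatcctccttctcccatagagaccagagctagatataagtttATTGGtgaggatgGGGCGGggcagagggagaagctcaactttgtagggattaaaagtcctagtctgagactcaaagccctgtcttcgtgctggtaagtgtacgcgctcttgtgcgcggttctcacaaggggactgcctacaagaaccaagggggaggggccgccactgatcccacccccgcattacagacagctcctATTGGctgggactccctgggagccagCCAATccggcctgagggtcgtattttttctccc
Cox6b1: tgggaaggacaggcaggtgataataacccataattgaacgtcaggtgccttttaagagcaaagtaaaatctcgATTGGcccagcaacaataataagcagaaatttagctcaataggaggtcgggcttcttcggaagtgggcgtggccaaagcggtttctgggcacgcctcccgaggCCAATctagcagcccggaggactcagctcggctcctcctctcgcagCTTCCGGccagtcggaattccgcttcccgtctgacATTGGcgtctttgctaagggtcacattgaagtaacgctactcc
Each window held 3 CCAAT matches. Only the Cox6b1 window of the pair held the ETS motif, at position -28, and only the Cox6b2 window held the GC box, at position -193. A match describes letters in the window and not a bound factor.

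In male KO cells 9 members were called higher and 1 lower than in male WT cells at an adjusted p below 0.05. That is 11.5% and 1.28% of the 78 tested members, against a background of 10.1% higher and 10.1% lower among all 13912 tested genes, so the share higher was near the background. The median log2 difference of the members was 0.054, against 0.00021 for all tested genes, and 62 of 78 members had a positive difference. Between libraries of the same group, the member median itself varied with an SD of 0.043 on the log2 scale. The members thus shift together by library, and their signs are not independent. By complex, 1 of 34 tested members was higher in complex I, 1 of 4 in complex II, 1 of 9 in complex III, 2 of 14 in complex IV and 4 of 15 in complex V, and Cox6b2 was the only one lower. The count of 10 rested on single libraries, since it was 21 without male WT 1, 4 without male WT 3, 5 without male WT 4, 4 without male KO 2 and 4 without male KO 3.

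The members higher in male KO cells differed by little. Beside Cox6b1, complex IV had Cox4i1, higher by 0.09 ± 0.031 on the log2 scale (adjusted p = 0.0297). Complex V had Atp5g2, a gene for subunit c of the rotor ring, with 0.21 ± 0.058 (adjusted p = 0.00906), and Atp5f1, subunit b of the peripheral stalk, with 0.11 ± 0.033 (adjusted p = 0.0109). Atp5c1, the gamma subunit of the central stalk, was higher by 0.10 ± 0.035 (adjusted p = 0.0435) and Atp5b by 0.07 ± 0.026 (adjusted p = 0.0435). Ndufa12, an accessory subunit of complex I, was higher by 0.16 ± 0.056 (adjusted p = 0.0431), and Sdhd, a membrane anchor of complex II, by 0.10 ± 0.035 (adjusted p = 0.0383). Of Atp5g2, the libraries held 23.2, 24.5 and 23.1 CPM in male KO and 21.5, 19.4, 20.6 and 19.97 CPM in male WT, with no overlap. In Atp5g2, Atp5f1 and Ndufa12, 38.3%, 37.6% and 26.2% of the 50-base stretches also occur in other annotated transcripts, so reads may have been shared with those copies. Several of these calls did not hold. Of 10 other settings, 5 ended the call of Atp5c1, 5 that of Ndufa12 and 6 that of Sdhd, and for each gene these included upper-quartile scaling and the DESeq2 Wald test. Leaving out male WT 3, male WT 4, male KO 2, male KO 3 or female WT 1 ended the calls of Atp5c1 (adjusted p up to 0.172) and Ndufa12 (up to 0.181). The call of Sdhd was lost without any 1 of the 3 male KO libraries or of male WT 2, 3 and 4 (up to 0.127), and that of Atp5g2 without male KO 2 (adjusted p = 0.0573).

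**Figure D4:**
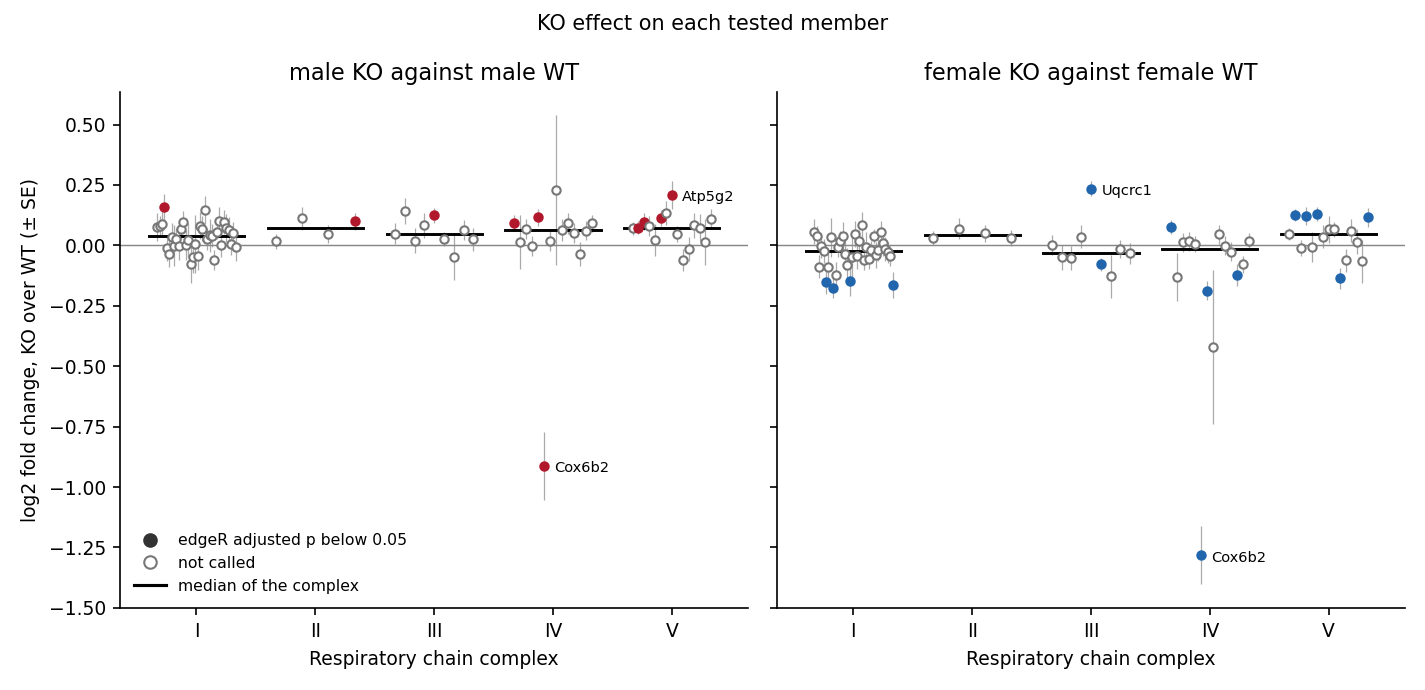
Log2 difference of KO over WT (± SE) for each tested subunit gene by complex, in males (left) and females (right), with filled points for genes past the edgeR test, open points for the others and black lines for the median of each complex. Nearly all points lie near 0, and Cox6b2 stands apart at -0.91 in males and -1.28 in females.

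In female KO cells 6 members were called higher and 9 lower than in female WT cells. These are 7.69% and 11.5% of the 78 tested members, both under the background of 20.7% higher and 18.6% lower among all tested genes. Their median log2 difference was -0.0094, against 0.00014 for all tested genes, with 34 positive and 44 negative. The split between the directions depended on scaling. With library size alone and no TMM factor, 3 members were higher and 12 lower, and 2288 of all genes were higher and 3441 lower, against 2884 higher and 2585 lower with TMM. Without female WT 3 the members called numbered 9, with 3 higher and 6 lower.

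Complex I had 4 of 34 tested members lower and 0 higher in female KO cells. All 4 are among its 27 tested accessory subunits, of which they are 14.8%, below the 18.6% of all tested genes. Ndufa6, which belongs to the arm in the matrix, fell by 0.18 on the log2 scale (SE 0.041, adjusted p = 7.69e-04). Ndufv3 fell by 0.16 (SE 0.055, adjusted p = 0.0175), Ndufa2 by 0.15 (SE 0.050, adjusted p = 0.014) and Ndufb3 by 0.15 (SE 0.060, adjusted p = 0.0475). The call of Ndufb3 was lost with the DESeq2 Wald test and without any 1 of the 4 female WT libraries, female KO 3 or female KO 4 (adjusted p up to 0.256). The call of Ndufv3 was lost without female WT 4 (adjusted p = 0.0558) and that of Ndufa2 without female WT 2 (adjusted p = 0.0713). Of the 7 core members of complex I, which apart from Ndufs3 carry the flavin, the iron-sulfur clusters or the quinone site, 0 passed the test in either sex. Whether core and accessory members differ was not tested. All 4 complex II genes had a positive log2 difference in female KO cells, of median 0.041, and 0 of 4 passed.

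Complex IV had 3 members lower and 1 higher of 14 tested in female KO cells. These are 21.4% and 7.14%, against 18.6% lower and 20.7% higher among all tested genes. Beside Cox6b2, Cox6c, a small membrane-spanning subunit, fell by 0.19 (SE 0.039, adjusted p = 1.84e-04), and Cox7c fell by 0.12 (SE 0.046, adjusted p = 0.0345). Cox4i1 was higher by 0.08 ± 0.029 (adjusted p = 0.0335). Complex V had 4 members higher and 1 lower of 15, which is 26.7% and 6.67%, against 20.7% and 18.6% of all tested genes. The 4 higher were Atp5b with 0.13 ± 0.024 (adjusted p = 8.41e-05), Atp5f1 with 0.13 ± 0.030 (adjusted p = 8.44e-04), the central stalk subunit Atp5d with 0.12 ± 0.039 (adjusted p = 0.0143) and Atp5o, the oligomycin sensitivity conferring protein of the peripheral stalk, with 0.12 ± 0.039 (adjusted p = 0.0183). Atp5h, subunit d of the same peripheral stalk, fell by 0.14 (SE 0.043, adjusted p = 0.0113). In Atp5o, Atp5h and Cox7c, 47.6%, 36.9% and 23% of the 50-base stretches also occur in other annotated transcripts, so reads may have been shared with those copies. The calls of Atp5d, Atp5o and Cox4i1 were lost with library size alone. The call of Cox4i1 was lost in 6 of 10 other settings, among them upper-quartile scaling, the DESeq2 Wald test and both other filters, and without female WT 2, 3 or 4 or female KO 1 or 3 (adjusted p up to 0.154). Atp5d lost its call without female WT 3, female KO 1 or female KO 2 (up to 0.0816), Atp5o without female WT 3, female KO 1 or female KO 3 (up to 0.064) and Cox7c without female WT 1, 2 or 3 or female KO 4 (up to 0.133).

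Complex III had 1 member higher and 1 lower of 9 in female KO cells, 11.1% each, below the 20.7% higher and 18.6% lower among all tested genes. They are the paired core proteins that face the matrix. Uqcrc1 (core protein 1) was higher by 0.23 ± 0.030 on the log2 scale (1.18-fold, adjusted p = 6.24e-08), while Uqcrc2 (core protein 2) fell by 0.08 (SE 0.028, adjusted p = 0.0236). Uqcrc2 had 145.9, 151.2, 148.7 and 145.1 CPM in female KO libraries, against 154.6, 157.9, 158.3 and 153.5 CPM in female WT libraries, without overlap. Of the 50-base stretches of Uqcrc2, 24.2% also occur in another gene's transcripts.

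The members called in the same direction in both sexes numbered 5, and 0 were called in opposite directions. They are Cox6b2, lower, and Uqcrc1, Atp5b, Atp5f1 and Cox4i1, higher, and they make up 50% of the 10 members called in males and 33.3% of the 15 called in females. Among all tested genes, 1724 were called in the same direction in both sexes, which is 61.4% of the 2808 called in males and 31.5% of the 5469 called in females, and 215 in opposite directions, so these shares of the members were near or below those of all genes. Uqcrc1 had 169.9, 168.1 and 172.2 CPM in male KO libraries, against 159.8, 152.5, 156.2 and 154.7 CPM in male WT libraries. In female KO libraries Uqcrc1 had 170.9, 161.9, 162.5 and 160.4 CPM, against 134.3, 140.9, 138.1 and 143.6 CPM in female WT libraries. All KO libraries lay above all WT libraries of their sex, the male difference was 0.13 ± 0.031 on the log2 scale (1.09-fold, adjusted p = 0.00346), and the difference between the sexes did not pass the test (0.11 ± 0.043, adjusted p = 0.0855). The summed level of 6 leukocyte markers was also higher in KO libraries, at 22.2 to 25.0 CPM in male KO and 16.4 to 18.9 in male WT, and to 27.7 to 32.7 in female KO and 22.1 to 25.0 in female WT. Of the 5 tested, the complement genes C1qa and C1qb were higher in both sexes and Ptprc in males, while Cd68 and Csf1r passed in neither sex (female log2 differences 0.00 ± 0.13 and -0.13 ± 0.081), and Cd3e was at or under 0.0971 CPM. Their part in the Uqcrc1 result was not tested.

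Atp5b had 1095, 1094 and 1087 CPM in male KO libraries, against 1090, 1024, 1012 and 1024 CPM in male WT libraries, so the groups overlapped through male WT 1. In female KO libraries it had 1082, 1066, 1056 and 1034 CPM, against 962, 985, 978 and 960.3 CPM in female WT libraries, with no overlap. Atp5f1 had 134.4, 142.1 and 138.8 CPM in male KO libraries, against 127.5, 130.3, 124.3 and 130.1 CPM in male WT libraries. In female KO libraries Atp5f1 had 139.3, 134.4, 143.6 and 136.5 CPM, against 123.5, 129.1, 127.3 and 126.5 CPM in female WT libraries, and KO and WT did not overlap in either sex. Cox4i1 had 234.1, 247.9 and 240.5 CPM in male KO libraries and 234.5, 227, 219.3 and 221.1 CPM in male WT libraries, which overlapped, and 249.4, 231.8, 241.6 and 235.6 CPM in female KO libraries and 230.8, 228.6, 227.7 and 221.3 CPM in female WT libraries, which did not. With counts over library totals in place of TMM-scaled sizes, the female KO and female WT libraries of Cox4i1 overlapped, while those of Uqcrc1, Atp5b and Atp5f1 did not. The male call of Atp5b was lost in 9 of the 15 fits that left out a library, those without any male KO library, male WT 2, 3 or 4 or female WT 1, 2 or 3 (adjusted p up to 0.125). The male call of Cox4i1 was lost without male WT 3, male WT 4, male KO 2 or male KO 3 (up to 0.159), and that of Atp5f1 without male KO 2 (adjusted p = 0.0765). Of the 10 other settings, 4 also ended the male call of Atp5b, among them upper-quartile scaling and the filter of at least 5 CPM in at least 3 libraries. The female call of Cox4i1 was lost in the settings given above. The places of Atp5b and Cox4i1 among the members called in both sexes therefore depend on the processing.

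**Figure D5:**
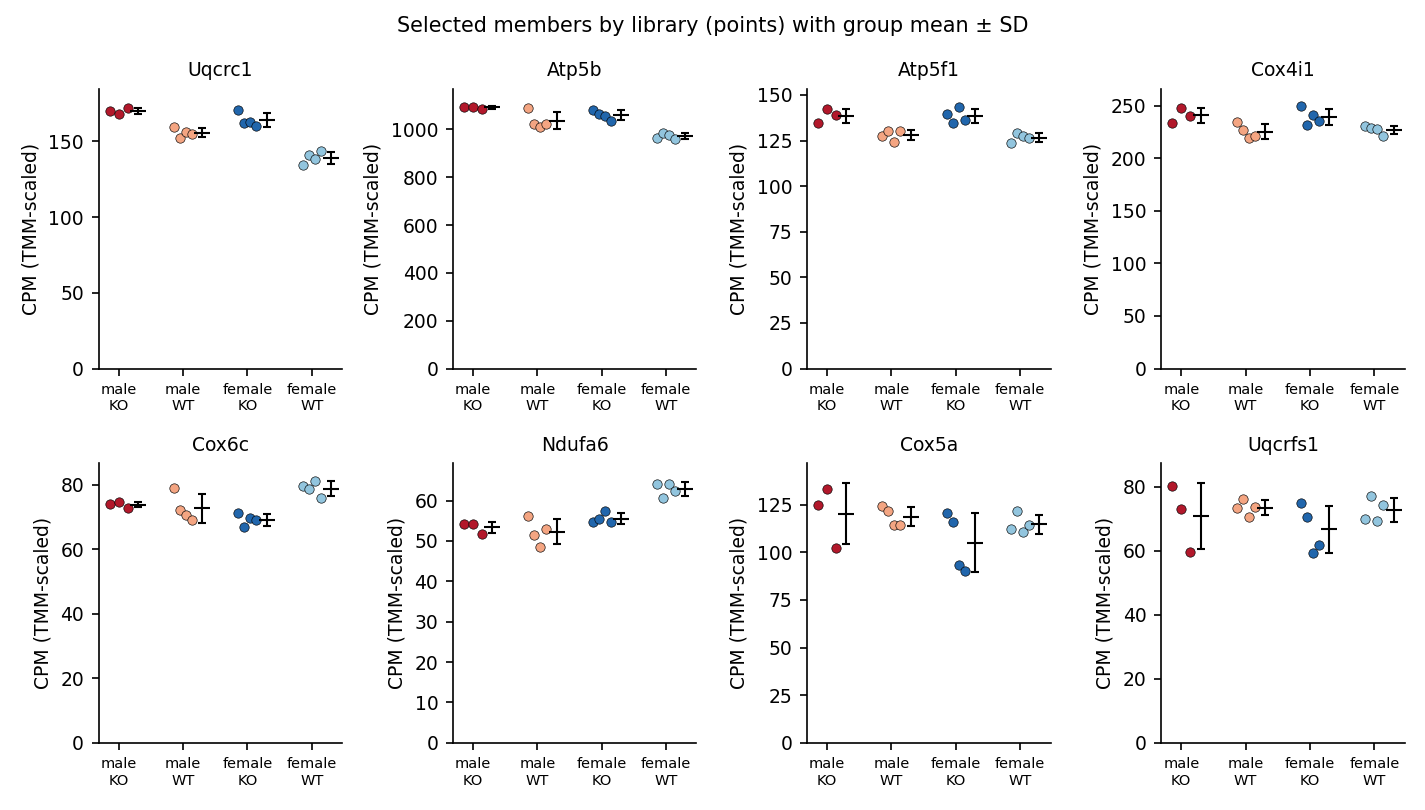
CPM by library (points, linear axes from 0) with group mean ± SD for 8 subunit genes in male KO (n = 3), male WT, female KO and female WT (n = 4 each). Uqcrc1 KO points lie above WT points in both sexes, Cox6c and Ndufa6 show a high female WT group, and Cox5a and Uqcrfs1 spread more widely in KO than in WT libraries.

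The promoter windows of Uqcrc1 and Atp5b, the members with the smallest female p-values among those higher in both sexes, are shown for their different motif content. The windows are chr9:108936398-108936697 and chr10:128083057-128083356 on the plus strand (RefSeq, GRCm38.p6, 250 bases before to 50 after the start). Capitals mark matches on either strand to the NRF1 motif (GCGC, any base, then TGCGC) in Uqcrc1 and to CCAAT and GGGCGG in Atp5b.
Uqcrc1: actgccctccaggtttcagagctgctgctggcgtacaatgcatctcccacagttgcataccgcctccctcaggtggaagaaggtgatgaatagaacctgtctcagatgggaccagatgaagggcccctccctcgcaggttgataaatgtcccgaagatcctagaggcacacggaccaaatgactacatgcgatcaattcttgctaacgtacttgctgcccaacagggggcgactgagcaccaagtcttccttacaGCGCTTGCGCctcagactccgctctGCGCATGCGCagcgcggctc
Atp5b: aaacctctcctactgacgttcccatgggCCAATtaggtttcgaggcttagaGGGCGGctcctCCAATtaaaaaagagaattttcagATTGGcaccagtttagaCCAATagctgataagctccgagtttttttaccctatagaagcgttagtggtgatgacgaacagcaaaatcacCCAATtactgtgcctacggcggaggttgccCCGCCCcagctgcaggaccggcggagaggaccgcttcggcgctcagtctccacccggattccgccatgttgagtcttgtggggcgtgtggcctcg
The Uqcrc1 window held the NRF1 motif starting at positions 5 and 30 after the start, and the Atp5b window held 5 CCAAT and 2 GGGCGG matches and no NRF1 match.

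RefSeq windows were found for 66 of the 84 members, 71 windows in all, and motifs of nuclear regulators of mitochondrial genes were counted in them on both strands. The NRF1 motif stood in 25.4% of member windows and 4.6% of all 32851 windows of the same length, the GABP motif CCGGAAG in 22.5% and 8.86%, the YY1 motif AAGATGG in 14.1% and 6.34%, and the ERR motif TCAAGGTCA in 2.82% and 0.423%. CCAAT stood in 42.3% of member windows and 37.4% of all windows, and GGGCGG in 38.0% and 35.7%. Among 16 tested members with the NRF1 motif, 4 were higher and 0 lower in male KO cells, with a median log2 difference of 0.07, and among 47 without it 3 were higher and 1 lower, with a median of 0.06. In female KO cells the 16 had 2 higher and 2 lower with a median of 0.02, and the 47 had 2 higher and 4 lower with a median of -0.02. The background over all tested genes was 10.1% in each direction in males, and 20.7% higher and 18.6% lower in females, and members with and without the motif were not tested against each other.

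The KO effect differed between the sexes in 2 members, both lower in the female than in the male comparison, which is 2.56% of the 78, and in 0 members in the other direction. Among all tested genes 9.76% had a higher and 5.89% a lower female effect. Cox6c had 71.2, 66.8, 69.7 and 69.0 CPM in female KO libraries and 79.8, 78.6, 81.1 and 75.8 CPM in female WT libraries, which did not overlap. In male KO libraries Cox6c had 74.0, 74.6 and 73.0 CPM, within the 79.1, 72.3, 70.6 and 69.0 CPM of male WT libraries, and its male log2 difference was 0.02 ± 0.042 (adjusted p = 0.825). The difference of the effects was -0.21 ± 0.057 on the log2 scale (adjusted p = 0.00985). Cox6c lies at chr15:35925886-35938246 (GRCm38) and overlaps Vps13b on the other strand, whose log2 difference in female KO cells was -0.06 ± 0.075 (adjusted p = 0.585).

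Ndufa6 had 54.7, 55.4, 57.5 and 54.6 CPM in female KO libraries, against 64.2, 60.5, 64.1 and 62.3 CPM in female WT libraries, without overlap. In male KO libraries Ndufa6 had 54.1, 54.2 and 51.8 CPM, against 56.1, 51.4, 48.6 and 52.9 CPM in male WT libraries, and its male difference was 0.03 ± 0.045 (adjusted p = 0.74). The female effect was lower by 0.20 ± 0.061 on the log2 scale (adjusted p = 0.018), and this call was lost without male WT 3 (adjusted p = 0.0515). The number of such members was 9 without male WT 1, 1 without male WT 3 and 5 without female KO 1, and it was 8 with library size alone. Under that scaling the all-gene split turned to 1095 higher and 1272 lower, against 1358 higher and 819 lower with TMM.

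Between the WT groups, 8 members were higher and 2 lower in female WT than in male WT cells, which is 10.3% and 2.56% of the 78, against 12.6% higher and 16% lower among all tested genes. This comparison, the female KO comparison and the difference of the effects all use the female WT libraries, so their values are not independent. Ndufa6 was higher by 0.26 ± 0.041 on the log2 scale (adjusted p = 4.93e-06) and Cox6b2 by 0.42 ± 0.11 (adjusted p = 0.00305). Cox7a2l, whose gene is a paralog of those for subunit 7a, was higher by 0.16 ± 0.040 (adjusted p = 0.00204). Ndufa2, Ndufa11, Ndufc2, Atp5h and Cox6c were higher by 0.11 to 0.15, and each of these 5 calls was lost in 3 or 4 of the 15 fits that left out a library, that without male WT 3 among them (adjusted p up to 0.191). Uqcrc1 was lower in female WT cells, with -0.16 ± 0.029 (adjusted p = 4.98e-05), and so was Atp5b, with -0.10 ± 0.024 (adjusted p = 0.00278). Without male WT 1 the number of members called was 19, and without male WT 3 or male WT 4 it was 6. With library size alone 15 members were higher and 2 lower, and 2313 of all genes were higher and 1876 lower, against 1757 higher and 2226 lower with TMM.

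Cox5a, a nuclear subunit of the matrix side of complex IV, and Uqcrfs1 varied within groups more than the other genes in the plot by library, and Cox5a was singled out after its values were seen. Cox5a had 124.8, 133.4 and 102.5 CPM in male KO libraries, against 124.5, 121.8, 114.5 and 114.4 CPM in male WT libraries, and 120.9, 115.8, 93.6 and 90.3 CPM in female KO libraries, against 112.2, 121.6, 110.6 and 114.5 CPM in female WT libraries. Uqcrfs1 had 80.2, 73.0 and 59.7 CPM in male KO libraries, against 73.5, 76.2, 70.4 and 73.6 CPM in male WT libraries, and 74.9, 70.7, 59.4 and 61.9 CPM in female KO libraries, against 69.9, 77.1, 69.3 and 74.5 CPM in female WT libraries. Both genes were low in the same 3 libraries, male KO 3, female KO 3 and female KO 4. Neither passed the test in males or females, with adjusted p between 0.286 and 0.95. Low values in these 3 libraries were not confined to Cox5a and Uqcrfs1. Ndufab1 and Tomm20 are on the lists below, and Ndufab1 is an Nduf gene that the symbol rule did not take. Ndufab1 had 17.1, 13.6 and 13.2 CPM in these 3 libraries and 19.75 to 24.15 CPM in the others. Tomm20 had 72.3, 71.3 and 71.25 CPM there and 77.9 to 89.9 CPM in the others. Both were picked after their values were seen, most listed genes did not share the pattern, and its cause was not tested. Of the 50-base stretches of Cox5a 32% occur in other transcripts, and of those of Uqcrfs1 none do.

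Genes that build, feed or regulate the chain were followed on lists named for their function. The background for their counts is again 10.1% of all tested genes in each direction in male KO cells, and 20.7% higher and 18.6% lower in female KO cells. None of the 14 tested complex I assembly factors passed in male KO cells, and 3 were lower and 0 higher in female KO cells, which at 21.4% is near the background, led by the iron-sulfur carrier Nubpl at -0.30 ± 0.096 (adjusted p = 0.0122) and Tmem126b at -0.29 ± 0.088 (adjusted p = 0.00759). Of 10 assembly factors of complexes II and III, 1 was lower in male KO cells (Sdhaf2, -0.14 ± 0.050, adjusted p = 0.0479) and 3 in female KO cells (30%), of which Uqcc3 had -0.29 ± 0.095 (adjusted p = 0.0161) and Sdhaf4 -0.25 ± 0.079 (adjusted p = 0.0123). Of 24 tested complex IV assembly factors, 1 was higher in male KO cells, the haem a synthesis enzyme Cox15 at 0.15 ± 0.047 (adjusted p = 0.0228), and 3 were higher and 4 lower in female KO cells, 12.5% and 16.7%, both below the background. Among these were Cmc2 at 0.30 ± 0.11 (adjusted p = 0.0303), the haem farnesyltransferase Cox10 at 0.27 ± 0.061 (adjusted p = 5.66e-04), Cox14 at -0.26 ± 0.057 (adjusted p = 5.14e-04) and Coa3 at -0.25 ± 0.051 (adjusted p = 1.62e-04). Of 5 complex V factors 0 passed in male KO cells and 1 was lower in female KO cells, Tmem70 at -0.15 ± 0.040 (adjusted p = 0.00325).

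On the list of 10 electron carriers and feeders, 2 were higher in male KO cells and 3 in female KO cells. These are 20% and 30% of the list, against 10.1% and 20.7% of all tested genes. The list also holds Ndufab1 and Ndufa4l2, Nduf genes that the symbol rule did not take and that are not electron carriers. Prodh, which passes electrons of proline to the chain, was higher by 0.43 ± 0.12 in males (adjusted p = 0.00865) and by 0.37 ± 0.12 in females (adjusted p = 0.0122), and Gpd2, the mitochondrial glycerol-3-phosphate dehydrogenase, by 0.15 ± 0.046 in males (adjusted p = 0.0143) and 0.23 ± 0.043 in females (adjusted p = 3.73e-05). The coenzyme Q list had 0 of 11 called in males and 1 higher in females, the methyltransferase gene Coq5 at 0.21 ± 0.059 (adjusted p = 0.00473). Of 18 genes of the tricarboxylic acid cycle and pyruvate dehydrogenase, 2 were higher in male KO cells, and 5 were higher and 2 lower in female KO cells. These are 11.1% higher in males, near the background of 10.1%, and 27.8% higher and 11.1% lower in females, against 20.7% and 18.6%. Citrate synthase (Cs) was higher by 0.14 ± 0.027 in males (adjusted p = 2.47e-04) and by 0.20 ± 0.025 in females (adjusted p = 6.76e-08), Idh3b by 0.14 ± 0.041 in males (adjusted p = 0.0151) and Dlst by 0.16 ± 0.030 in females (adjusted p = 6.73e-05). Idh2 was lower in females by -0.17 ± 0.041 (adjusted p = 0.00102) and Pdhb by -0.14 ± 0.037 (adjusted p = 0.00235).

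Among 16 regulators of mitochondrial biogenesis 0 passed in male KO cells, and 2 were higher and 2 lower in female KO cells, 12.5% each way, below the background of 20.7% and 18.6%. The coactivator gene Ppargc1a had 1.20, 0.649, 1.34 and 1.22 CPM in female KO libraries, against 2.13, 1.54, 2.20 and 1.71 CPM in female WT libraries, a log2 difference of -0.77 ± 0.22 (adjusted p = 0.00604). Its relative Ppargc1b differed by 0.48 ± 0.15 (adjusted p = 0.0134), Pprc1 by 0.16 ± 0.031 (adjusted p = 7.65e-05) and the orphan receptor gene Esrrb by -0.45 ± 0.16 (adjusted p = 0.0201). Of 26 genes for mitochondrial membrane channels, cristae, import and chaperones, 6 were higher and 1 lower in male KO cells, and 11 were higher and 2 lower in female KO cells. These are 23.1% and 3.85% of the list in males, against 10.1% and 10.1% of all tested genes, and 42.3% and 7.69% in females, against 20.7% and 18.6%. The fusion gene Mfn2 was higher by 0.19 ± 0.034 in males (adjusted p = 7.89e-05) and by 0.27 ± 0.032 in females (adjusted p = 2.03e-08), Hspe1 by 0.15 ± 0.048 in males (adjusted p = 0.0196) and the calcium uniporter gene Mcu by 0.18 ± 0.056 in females (adjusted p = 0.00959). Opa1, whose protein fuses inner membranes, was lower by -0.10 ± 0.031 in females (adjusted p = 0.0123), and the carrier gene Ucp2 by -0.10 ± 0.036 in males (adjusted p = 0.0468) and by -0.09 ± 0.034 in females (adjusted p = 0.041). On this list the female median was 0.092, against -0.0094 for the respiratory chain genes and 0.00014 for all tested genes.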

How the data were processed

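The deposited table gives raw counts per gene symbol for 15 libraries, and a second deposited table gives CPM, which equalled counts divided by the library total times 1e+06 within 1e-06 for every value. Per the submitters' processing notes, the build was mm10, and the tools named are STAR 2.6.1 (an aligner), featureCounts (a read counter), limma 3.40.6 and edgeR 3.26.8. Libraries were strand-specific, per the labels' protocols, and the strand setting and annotation of the counting are not given in the sources used here.

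Members were taken by symbol, and the members and lists were chosen with earlier results of these data known. Counts were tested with the quasi-likelihood test of edgeR 4.0.16 (R 4.3.3) with TMM factors, a mean per group over all 15 libraries, and a filter of at least 10 counts in enough libraries and 15 in total. Benjamini-Hochberg adjustment ran over all 13912 genes, and a gene was called at an adjusted p below 0.05. The CPM printed here are instead counts per 1e+06 of the tested-gene total times the TMM factor, 98.4 to 102% of the deposited CPM, and shares of counts are over library totals. Named are called members (up to 8 per direction), those called in both sexes, the highest and lowest of each complex per kilobase, all isoform groups, members under the filter, and up to 2 called genes per direction of each other list. Exon lengths, positions and shared 50-base stretches came from GENCODE M21, promoters from RefSeq. Alternatives included DESeq2 1.42.0, limma-voom (limma 3.58.1), other scalings and filters, a replicate block, counts summed per pool and leaving out each library.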

Additional observations from a re-analysis of the deposited data

Results flagged for a closer look

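Cox6c and Ndufa6 stand out because their KO effect differed between the sexes by the test of the difference itself, with female minus male values of -0.21 and -0.20 on the log2 scale. In both genes the female KO libraries lay below the female WT libraries, and the male KO and male WT libraries overlapped.

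Among the 35 named members, 105 groups of 4 libraries were checked for a single library far from the other 3, and 3 were found. Chance marks about 1 in 20 groups in this way, so 3 of 105 is no more than chance gives. In Atp5b, male WT 1 stood alone with 1090 CPM, the next highest male WT library had 1024 CPM and the lowest 1012 CPM, so the gap was 0.843 of the range. In Cox6b2, female KO 4 was the lowest with 2.61 CPM, against 2.95 CPM in the nearest and 3.00 CPM in the highest female KO library, a gap of 0.857 of the range. In Cox7a2l, female WT 4 was the lowest with 82.1 CPM, against 87.0 CPM in the nearest and 87.9 CPM in the highest female WT library, a gap of 0.84 of the range.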

How the results depend on the processing

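The calls of Cox6b2 and Uqcrc1 in both sexes held under every alternative and without any single library, except with counts summed per pool, where the adjusted p were 0.137 and 0.207. That fit has 4 pools and 1 residual degree of freedom. It called 0 members for KO over WT in males and females together (edgeR, with 3 members at an unadjusted p under 0.05) and 0 members for female over male (with 0 at an unadjusted p under 0.05). In male KO cells the 10 members called were 6 with upper-quartile scaling and 4 to 21 when a library was left out. In female KO cells the 15 called were 9 to 16 when a library was left out. The 2 members with a differing KO effect were 8 with library size alone and 1 to 9 when a library was left out, and the 10 that differed between female WT and male WT cells were 17 and 6 to 19. The cause of these shifts was not tested. Same-numbered KO and WT libraries had deviations from their group means that correlated by -0.0285 to 0.072, and the numbers were not taken as pairs. Yet 4 of 7 KO libraries, each set against 4 WT libraries, were closest to that of their own number. An effect shared by libraries of the same number is therefore not excluded. A replicate block on the numbers gave 13 members in males, 17 in females, 4 with a differing effect and 16 between the WT groups. For single members, 744 of 814 values kept direction and call under the other settings, 59 lost the call, 11 gained it and 0 reversed, and 1137, 76, 17 and 0 of 1230 did so when a library was left out. The median of the members was positive in males under all settings (0.019 to 0.084), and in females it lay between -0.048 and 0.019. Between libraries of the same group the member median had an SD of 0.043 on the log2 scale. Isoform shares depend on the annotated exon length. With 50 to 173 counts of Cox6b2 and 6 to 22 of Cox7a1 per library, small differences in these forms were not detectable.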
